A study of Mus musculus with 4 samples.

Results

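Histone genes were followed across 4 microarrays of RNA from mouse intestinal epithelium. They were taken as the probe sets that carry a single gene symbol and whose symbol begins as a histone symbol does, which gave 40 probe sets for 39 genes, out of 21640 single-symbol probe sets for 19937 genes. Of the 39 genes, 30 were replication-dependent histones and 9 were replacement histones. The RNA came from adult C57BL/6 mice, a wild-type laboratory strain, and had been crosslinked to protein with ultraviolet light before precipitation. The arrays held RNA precipitated with an antibody to Musashi1 (Msi1, Millipore AB5977), RNA precipitated with an antibody to an hnRNP protein that the labels do not specify further, RNA precipitated with nonspecific IgG, and input RNA that was not precipitated. Each group had 1 array made from RNA combined from 2 experiments, so there were no replicates, no test was possible and every difference below is described by its size alone.

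Histones are the proteins around which DNA is wound. Replication-dependent histone genes lie in clusters, are transcribed during S phase and give short mRNAs without introns that end in a stem-loop in place of a poly(A) tail, and some of them are also known to give polyadenylated mRNAs in cells that have left the cycle. Replacement histones are encoded by single genes with polyadenylated mRNAs and are made throughout the cell cycle. In the gut epithelium S phase is confined to the crypts. Musashi1 is an RNA-binding protein of progenitor cells that binds short UAG-containing motifs, mostly in mRNA 3′ ends, and hnRNP proteins are abundant nuclear RNA-binding proteins.

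The promoters of 5 histone genes are given here because these genes are among those that carry the results below. H1f2, H2az2 and H2aj stood above IgG in the Msi1 precipitation, H2ac15 stood below it, and H4c4 was 54.7-fold lower in Msi1 than in input. Each window runs from 250 bases before the annotated gene start to 50 bases after it, in the direction of the gene, and comes from RefSeq on build GRCm38.p6. H1f2 lies at chr13:23738557-23738856 on the plus strand, H2az2 at chr11:6444394-6444693 on the minus strand, H2aj at chr6:136807998-136808297 on the plus strand, H4c4 at chr13:23581318-23581617 on the plus strand and H2ac15 at chr13:21753863-21754162 on the minus strand. Capitals mark TATAAA, the core of a TATA box, and CCAAT, the core of a CCAAT box, each on either strand, so that CCAAT on the other strand reads ATTGG.
H1f2: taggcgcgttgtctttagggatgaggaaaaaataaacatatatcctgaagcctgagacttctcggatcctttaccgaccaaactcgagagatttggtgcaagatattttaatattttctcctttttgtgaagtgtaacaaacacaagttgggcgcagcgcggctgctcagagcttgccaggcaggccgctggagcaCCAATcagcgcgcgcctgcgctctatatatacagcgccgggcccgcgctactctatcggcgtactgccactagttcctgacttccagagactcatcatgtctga
H2az2: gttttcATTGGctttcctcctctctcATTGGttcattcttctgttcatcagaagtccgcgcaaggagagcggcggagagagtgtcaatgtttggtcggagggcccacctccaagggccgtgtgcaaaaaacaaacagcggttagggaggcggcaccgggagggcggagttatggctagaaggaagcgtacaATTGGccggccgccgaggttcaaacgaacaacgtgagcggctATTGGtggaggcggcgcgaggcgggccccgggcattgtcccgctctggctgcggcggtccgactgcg
H2aj: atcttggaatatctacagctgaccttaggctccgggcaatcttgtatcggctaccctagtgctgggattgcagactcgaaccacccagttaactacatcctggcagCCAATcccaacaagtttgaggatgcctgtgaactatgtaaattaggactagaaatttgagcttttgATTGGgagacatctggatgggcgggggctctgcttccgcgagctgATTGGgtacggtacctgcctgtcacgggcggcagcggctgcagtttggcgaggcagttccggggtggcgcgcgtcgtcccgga
H4c4: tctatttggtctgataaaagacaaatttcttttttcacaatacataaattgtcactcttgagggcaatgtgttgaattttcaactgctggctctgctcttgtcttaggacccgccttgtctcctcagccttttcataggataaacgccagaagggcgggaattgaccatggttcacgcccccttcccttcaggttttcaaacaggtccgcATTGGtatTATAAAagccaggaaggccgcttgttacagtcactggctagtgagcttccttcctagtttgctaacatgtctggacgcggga
H2ac15: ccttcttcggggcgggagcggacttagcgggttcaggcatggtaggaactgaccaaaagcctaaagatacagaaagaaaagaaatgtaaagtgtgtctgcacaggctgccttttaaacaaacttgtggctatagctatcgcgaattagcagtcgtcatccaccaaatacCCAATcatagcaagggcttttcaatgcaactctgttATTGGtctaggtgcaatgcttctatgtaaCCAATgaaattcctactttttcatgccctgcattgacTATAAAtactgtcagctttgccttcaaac

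RefSeq gave a promoter window for 33 of the 39 histone genes. H2bc4, the histone gene furthest above IgG in Msi1, was among those without a window. TATAAA or its reverse complement TTTATA was in 16 of 25 replication-dependent windows (64%), in 0 of 8 replacement windows and in 13.6% of all 32851 windows. TATAAA in the gene's own direction, starting 25 to 45 bases before the annotated start, was in 8 replication-dependent windows (32%), in 0 replacement windows and in 2.05% of all windows. In H4c4 it began at position −32 and ATTGG at −40. H1f2 had CCAAT at −54 and no exact TATAAA in this window. Its window does read tatatata between CCAAT and the annotated start, a stretch outside the letters searched. H2ac15 had its only TATAAA at position 21 after the annotated start. CCAAT or ATTGG was in 21 of 25 replication-dependent windows (84%), in 6 of 8 replacement windows (75%) and in 37.4% of all windows. Members are not independent here, since the windows of H2ac8 and H2bc8 share 279 bases and those of H2ac1 and H2bc1 share 220. A match describes these letters only and is not evidence of a bound factor.

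The signal needed for a gene to count as detected was set on each array by 1204 olfactory and vomeronasal receptor probe sets, which the gut epithelium should not express. The 95th percentile of their values, called the floor, was 4.74 on the Msi1, 5.17 on the hnRNP, 5.26 on the IgG and 4.09 on the input array. Above the floor on the Msi1 array were 23 of the 39 histone genes (59.0%), beside 47.7% of all genes. On hnRNP there were 21 (53.8%, beside 32.9%), on IgG 15 (38.5%, beside 28.1%) and on input 29 (74.4%, beside 59.1%). On at least 1 array 33 histone genes were above the floor, beside 68.1% of all genes. On all 4 arrays 13 were above it, beside 3524 of all 19937 genes. The spread of values differed between arrays, with a standard deviation over all probe sets of 1.38 on the Msi1, 1.20 on the hnRNP, 1.17 on the IgG and 2.01 on the input array, so that differences from input depend strongly on scaling. All 12 epithelial markers, among them Epcam, Cdh1 and Vil1, were above the floor on input, beside 59.1% of all genes. So were 4 of 5 immune markers, 3 of 7 markers of stroma, muscle and vessels and 0 of 1 red blood cell marker, and the part of such cells in the histone values was not tested. In RNA of a whole tissue, fewer cells of a type and less RNA per cell cannot be told apart.

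Msi1 was compared with IgG, the comparison by which the study ranked transcripts. A gene was counted when its log2 difference was at least 1, which is 2-fold, and the brighter of its values was above the floor of its array. Among the 30 replication-dependent genes, 2 passed this rule as higher in Msi1, H2bc4 and H1f2, and 3 passed it as lower. By the same rule 9.67% of all genes on the array were higher and 3.59% were lower. Of the 9 replacement genes, 2 were higher, H2az2 and H2aj, and 0 were lower. With a median difference of −0.23 log2 units the replication-dependent genes lay near all genes, at −0.19, and the replacement genes had a median of 0.23. The higher genes were 6.67% of the replication-dependent and 22.2% of the replacement genes, and neither share could be tested.

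H2bc4, which encodes an H2B core histone of the large cluster on chromosome 13, had a log2 signal of 9.13 in Msi1, 3.08 in hnRNP, 3.48 in IgG and 9.49 in input. The deposited Msi1 and input values lay close together and far above the floor, and the hnRNP and IgG values lay below it. A fold whose dimmer value did not reach the floor is a lower bound, taken against that floor. H2bc4 exceeded IgG at least 14.6-fold by this measure, and its deposited values differed by 5.65 log2 units, which ranked 5 among 19937 genes. Against hnRNP it was at least 15.6-fold higher (6.05) and against input it differed by −0.36. The difference from input depended on scaling and was 0.88 with quantile normalization and 1.23 with loess centring.

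H1f2, which encodes the linker histone H1.2 that binds DNA between nucleosomes, read 6.92 in Msi1, 5.45 in hnRNP, 4.62 in IgG and 7.08 in input. IgG alone was below its floor, and Msi1 and input differed by −0.16, or by 0.88 with quantile normalization and 1.26 with loess centring. It exceeded IgG at least 3.15-fold (2.30 log2 units) and hnRNP 2.77-fold (1.47). The other linker histone genes of the cluster did not follow it. H1f5 read 5.87 in Msi1, 5.57 in hnRNP, 5.55 in IgG and 8.10 in input, and H1f1 read 5.47, 5.15, 5.48 and 7.75 on the same arrays. On input they stood 4.01 (H1f5) and 3.66 (H1f1) log2 units above the floor, against 1.13 and 0.73 in Msi1, and H1f1 was just below the floor in hnRNP. H1f3 was above the floor on the input array only (4.32), and the testis linker histone H1f6 was below the floor on every array.

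**Figure D1:**
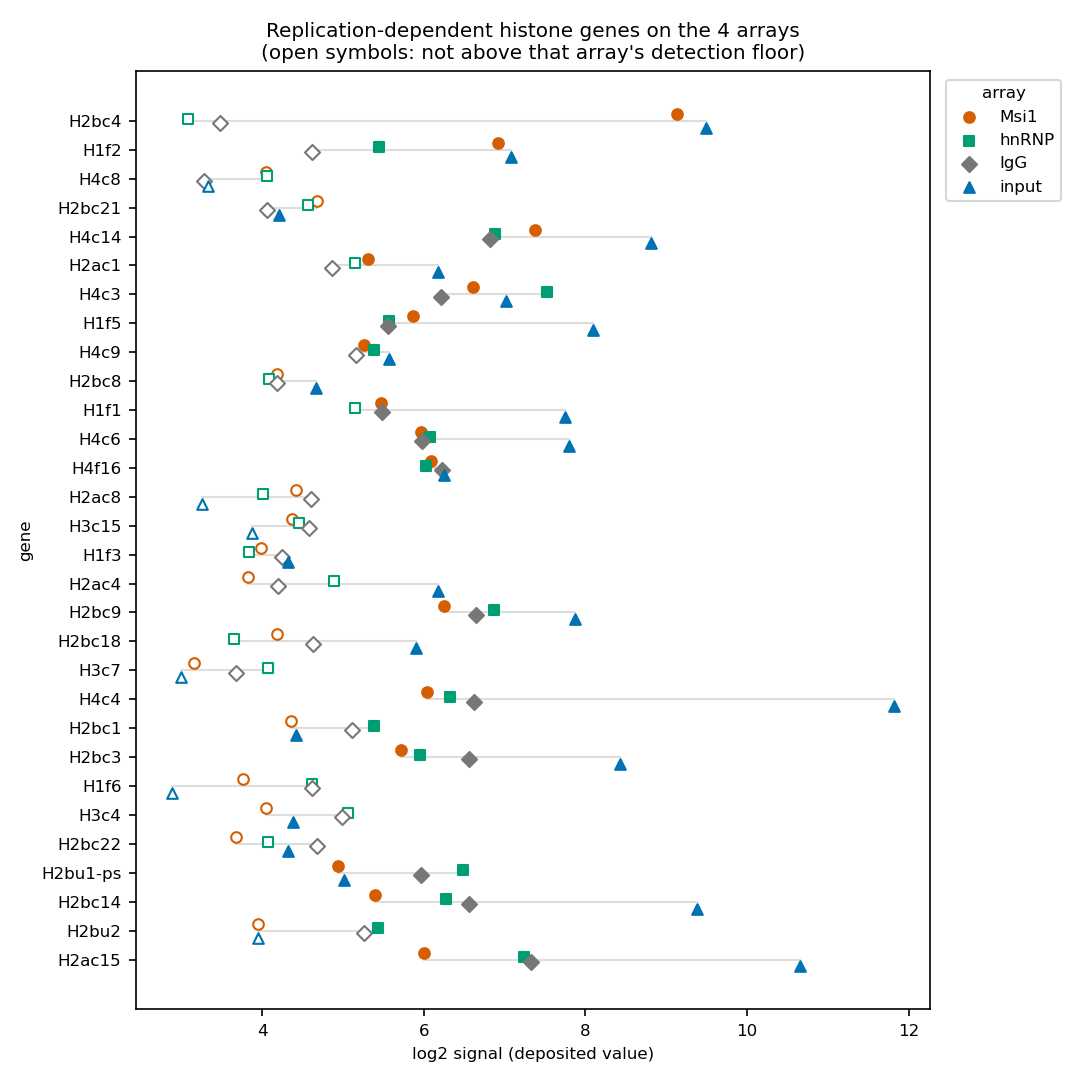
Log2 signal of each of the 30 replication-dependent histone genes (rows, ordered by Msi1 minus IgG) on the Msi1, hnRNP, IgG and input arrays, 1 array each, with open symbols where a value is not above the floor of its array. H2bc4 (9.13 in Msi1, 9.49 in input) and H1f2 (6.92 and 7.08) are the rows where the deposited Msi1 value sits beside input and at least 2-fold above IgG, while H4c4, H2ac15 and H2bc14 show input far to the right of all 3 precipitations.

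The 3 genes that stood below IgG were 1 H2A and 2 H2B genes. H2ac15, an H2A gene, read 6.00 in Msi1, 7.24 in hnRNP, 7.33 in IgG and 10.66 in input, and was 2.51-fold lower in Msi1 than in IgG (−1.33). H2bc14, an H2B gene, read 5.40, 6.28, 6.56 and 9.38 in the same order and was 2.24-fold lower (−1.16). For both, all 4 values were above the floor, Msi1 was the dimmest and input the brightest. The third gene, H2bu1-ps, which RefSeq annotates as a transcribed pseudogene, read 4.94 in Msi1, 6.48 in hnRNP, 5.97 in IgG and 5.01 in input and was 2.04-fold lower than in IgG, but under 2-fold once arrays were centred on their medians (−0.89) or by loess (−0.96). H2bu2 read 3.95 in Msi1, 5.44 in hnRNP, 5.26 in IgG and 3.95 in input (−1.30), and H2bc22 read 3.67, 4.08, 4.68 and 4.32 (−1.01). Their IgG values did not exceed the floor, so neither was counted. H2bc3 read 5.72 in Msi1, 5.95 in hnRNP, 6.56 in IgG and 8.44 in input (−0.83), and H2bc9 read 6.25, 6.87, 6.65 and 7.87 (−0.40). Both were above the floor on all 4 arrays, and H2bc3 passed 2-fold lower with quantile normalization (−1.24). Over the 11 replication-dependent H2B genes, 1 was higher and 2 were lower, with a median of −0.76, against 0 higher and 1 lower of the 4 H2A genes, with a median of −0.28. Over all genes 9.67% were higher and 3.59% lower, with a median of −0.19. Only 5 of the 11 H2B genes were above the floor on either array, and the receptor genes had a median of −0.38 in this comparison.

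The H4 genes differed little between Msi1 and IgG. Of 7, 0 were at least 2-fold higher or lower, and their median was 0.10. Of all genes 9.67% were higher and 3.59% lower, so a count of 0 among so few genes lies near those shares. H4c4 read 6.04 in Msi1, 6.32 in hnRNP, 6.62 in IgG and 11.81 in input, so that the precipitations lay within 0.58 log2 units of one another and far below input. H4c14 read 7.38, 6.89, 6.82 and 8.81 on those arrays, H4c6 read 5.97, 6.08, 5.98 and 7.80, and H4c3 read 6.60, 7.52, 6.22 and 7.02. For H4c3 the hnRNP value was the highest of the 4. H4f16, an H4 gene formerly named Hist4h4 that neighbours H2aj on chromosome 6, had nearly the same value on all 4 arrays (6.09, 6.03, 6.23 and 6.25). The 3 single-symbol H3 genes, H3c4, H3c7 and H3c15, were above the floor on no array except H3c4 on input (4.38), so these probe sets say little about H3. The replication-dependent genes not yet named, H4c8, H4c9, H2ac1, H2ac4, H2ac8, H2bc1, H2bc8, H2bc18 and H2bc21, differed between Msi1 and IgG by −0.76 (H2bc1) to 0.76 (H4c8). H2ac4 was the one of these furthest below input in Msi1, with 3.82 in Msi1, 4.89 in hnRNP, 4.20 in IgG and 6.18 in input. Near-identical coding sequences mean that probes of these families may take up RNA of other members, and the extent of this was not tested.

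Among replacement histones, H2az2, 1 of a pair of genes that encode H2A.Z, a variant found at promoters, read 8.76 in Msi1, 4.78 in hnRNP, 4.84 in IgG and 8.86 in input. As for H2bc4, the deposited Msi1 value lay beside input (−0.09) and both other precipitations were below the floor. With quantile normalization Msi1 exceeded input by 1.15, and with loess centring it also exceeded input by over 2-fold. It exceeded IgG at least 11.3-fold (3.92 log2 units) and hnRNP at least 12.1-fold (3.98). H2aj, which encodes H2A.J, read 8.49 in Msi1, 5.99 in hnRNP, 5.99 in IgG and 7.29 in input. All 4 values were above the floor, Msi1 was the highest, and Msi1 exceeded IgG 5.66-fold (2.50), hnRNP 5.63-fold (2.49) and input 2.29-fold (1.20, or 0.94 with median centring, 2.14 with quantile normalization and 2.74 with loess centring).

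H2az1, the other H2A.Z gene, did not show this pattern on its main probe set and was the only histone gene with 2 probe sets. The probe set with the higher mean read 6.05 in Msi1, 6.65 in hnRNP, 6.38 in IgG and 9.81 in input, a difference of −0.33 between Msi1 and IgG. The second read 5.57 in Msi1, 5.02 in hnRNP, 4.54 in IgG and 8.72 in input. There Msi1 exceeded IgG by 1.03 and was the only precipitation above its floor. Taken alone, the second probe set passed the 2-fold rule as higher, so the count of higher replacement genes depends on the probe set used. Both placed input more than 3 log2 units above Msi1 (−3.75 and −3.15), unlike H2az2.

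The remaining replacement genes were close to the floor in the precipitations. H2ax, whose protein is phosphorylated at DNA breaks, read 5.36 in Msi1, 5.51 in hnRNP, 5.13 in IgG and 6.44 in input. H1f10, a linker histone gene, read 5.49, 5.64, 4.65 and 4.76 on those arrays, and its difference from IgG of 0.83 passed 2-fold with quantile normalization (1.15). The germ-line gene H2bfm read 5.14 in Msi1, 5.56 in hnRNP, 4.90 in IgG and 3.32 in input. The germ-line linker histones H1f7 and H1f8 read 4.64 and 4.82 in Msi1, 5.43 and 4.99 in hnRNP, 4.76 and 5.59 in IgG, and 4.06 and 4.08 in input. These 3 genes differed from IgG by 0.23, −0.12 and −0.78, and H1f8 passed 2-fold lower with quantile normalization (−1.01). The single-symbol H3f3a probe set, for an H3.3 gene, was below the floor on every array (3.64 in Msi1, 4.30 in hnRNP, 4.98 in IgG and 2.44 in input).

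**Figure D2:**
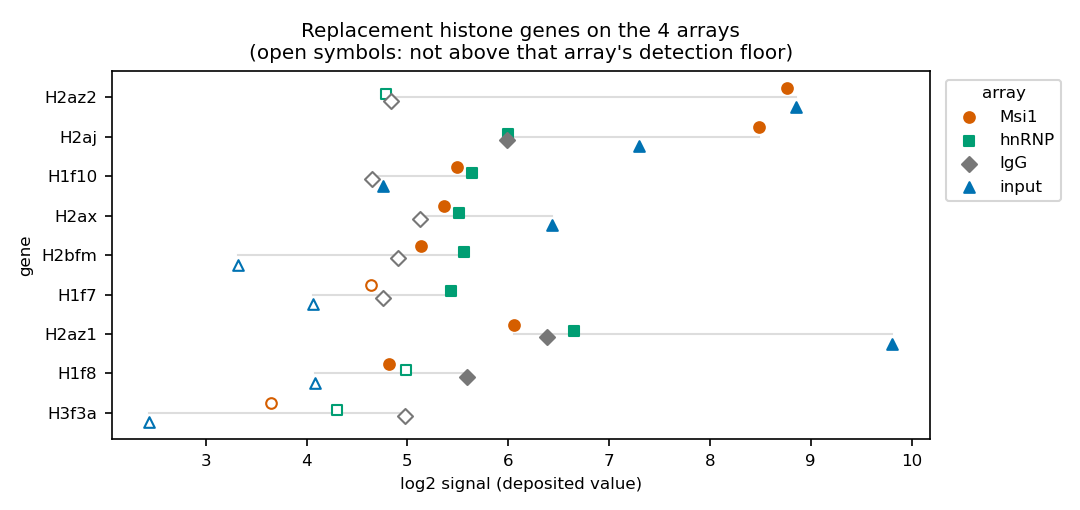
Log2 signal of the 9 replacement histone genes (rows, ordered by Msi1 minus IgG) on the Msi1, hnRNP, IgG and input arrays, 1 array each, with open symbols where a value is not above the floor. H2az2 and H2aj have Msi1 values of 8.76 and 8.49 against IgG values of 4.84 and 5.99, and H2az1 has 9.81 on input with 6.05 in Msi1, 6.65 in hnRNP and 6.38 in IgG.

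Msi1 was then set against hnRNP, a second antibody, which shares the Msi1 array with the comparison above. H2bc4, H2az2, H2aj and H1f2 passed as higher in Msi1, as did 9.34% of all genes. Passing as lower were 4 of the 30 replication-dependent genes and 0 of the 9 replacement genes, beside 4.16% of all genes. They were H2bu1-ps (2.91-fold, −1.54), H2bu2 (at least 1.62-fold, −1.49), H2ac15 (2.37-fold, −1.24) and H2bc1, a testis H2B gene (at least 1.57-fold, −1.02, or −0.90 with median centring). The median difference was −0.12 for replication-dependent and −0.17 for replacement genes, and −0.19 for all genes.

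On the deposited scale hnRNP differed at least 2-fold from IgG at 1 histone gene. H4c3 was 2.47-fold higher in hnRNP (7.52 against 6.22 in IgG, 1.30 log2 units), and 0 were lower. Of all genes, 2.49% were higher and 1.79% lower. The difference of H1f10 was 0.99 as deposited and reached 2-fold with median centring (1.00) and quantile normalization (1.41). Medians were 0.04 for replication-dependent, 0.27 for replacement and 0.00 for all genes. H2bc4, H2az2 and H2aj differed between hnRNP and IgG by −0.40, −0.06 and 0.01. H1f2, which also stood above IgG in Msi1, was 0.82 higher in hnRNP than in IgG, or 1.17 with quantile normalization. Its hnRNP value was above the floor and its IgG value below it.

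Msi1 was set against input to compare the signal of each histone gene with its signal in the RNA before precipitation. Every array was loaded with the same mass of RNA, so these differences are relative. How much of each mRNA was recovered was not tested. At least 2-fold lower in Msi1 were 11 of 30 replication-dependent and 2 of 9 replacement genes, beside 24.6% of all genes. At least 2-fold higher were 0 and 2, beside 7.56%. Some of the lower calls depended on scaling, among them H1f1 (−2.28), H1f5 (−2.23) and H2ax (−1.07). With quantile normalization these differed by −0.98, −0.83 and −0.23, and with loess centring by −0.98, −0.81 and −0.17. H4c4 was 54.7-fold lower in Msi1 than in input (−5.77), H2ac15 25.3-fold (−4.66), H2bc14 15.9-fold (−3.99), H2az1 13.5-fold (−3.75) and H2bc3 6.55-fold (−2.71). H2aj and H2bfm were the 2 higher genes, H2bfm by at least 2.07-fold (1.82) with an input value of 3.32 below the floor. The median difference was −0.39 for replication-dependent and 0.73 for replacement genes, beside 0.18 for all genes. Of the 6 replacement genes with a positive difference, H2bfm, H1f7, H1f8 and H3f3a were below the floor on input, and the receptor genes had a median difference of 0.56 in this comparison.

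IgG was set against input as the background of precipitation. In IgG 14 of 30 replication-dependent and 4 of 9 replacement genes were at least 2-fold lower, beside 28.4% of all genes, and 1, H1f8, was at least 2.84-fold higher, beside 10.3%. H4c4 was 36.7-fold lower in IgG than in input (−5.20), H2az1 was 10.8-fold lower (−3.43), H2ac15 differed by −3.33 and H2bc14 was 7.08-fold lower (−2.82). H2bc4, H2az2 and H1f2 were also lower in IgG, by at least 18.7-fold, 12.1-fold and 3.52-fold. On the deposited scale IgG thus lay below input both for the histone genes whose Msi1 value was near input and for those whose Msi1 value was far below it. Medians were −0.64 for replication-dependent, −0.10 for replacement and 0.36 for all genes. The signs of several of these IgG differences turned with another scaling, as given in the closing section. The H2az1 difference kept its sign but shrank to −1.53 with quantile normalization and to −0.01 with loess centring.

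The histone genes that stood well above background on input divided in the Msi1 precipitation. With a bar of 8-fold over the input floor, chosen after the values were seen, 10 replication-dependent genes qualified. In Msi1 against IgG 1 of them was higher (H2bc4), 2 were lower (H2ac15 and H2bc14) and the median was −0.21. H1f2, which also passed as higher, narrowly missed the bar, at 2.995 log2 units over the input floor. Of the 3 replacement genes that qualified, H2az2 and H2aj were higher. H2az1 was neither on its main probe set, while its second probe set passed as higher. Over all 2982 genes past that bar, 39.7% were higher and 1.21% lower, with a median of 0.68. The lowest value of Msi1 minus input among the 10 was −5.77 (H4c4) and the highest −0.36 (H2bc4).

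**Figure D3:**
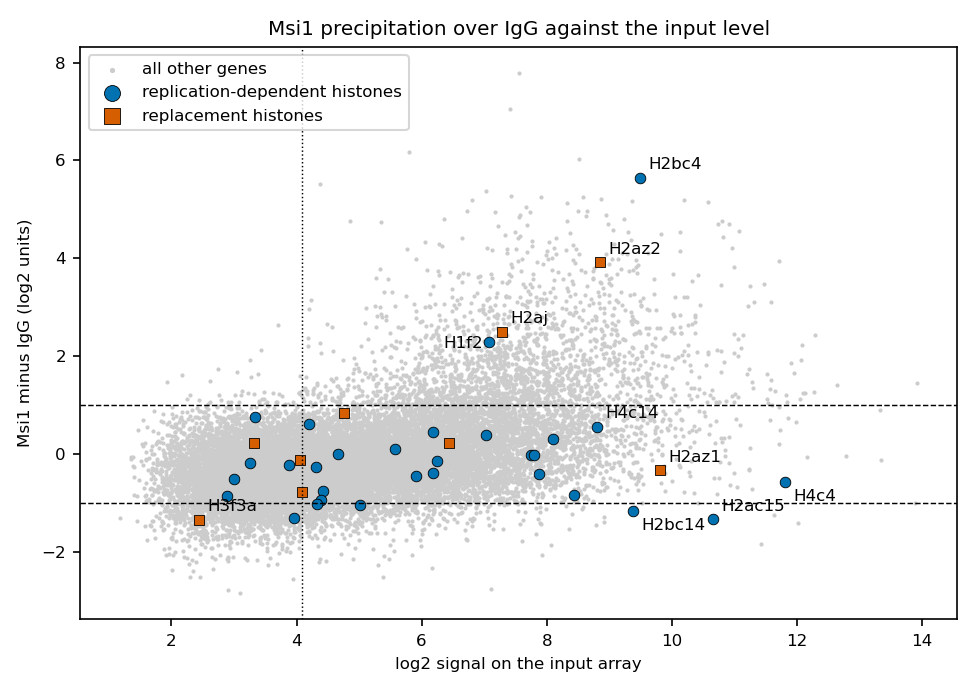
Msi1 minus IgG (log2 units, vertical) against the log2 signal on the input array (horizontal) for the 30 replication-dependent histone genes, the 9 replacement histone genes and all other genes on the array, with dashed lines at 2-fold and a dotted line at the input floor of 4.09. Among histones far right of the floor, H2bc4, H2az2, H2aj and H1f2 lie above the upper dashed line. H4c4, H2az1 (main probe set), H2bc14 and H2ac15 lie below 0.

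Genes that make, process or handle histones were also examined in Msi1 against IgG, where 9.67% of all genes were higher and 3.59% lower, with a median of −0.19. Of 22 genes for the 3′ end processing and decay of histone mRNA, 3 passed as higher in Msi1 against IgG and 0 as lower, with a median of 0.22. Tent4b, a noncanonical poly(A) polymerase gene, was 6.11-fold higher (7.98 in Msi1, 4.36 in hnRNP, 5.37 in IgG and 8.09 in input). Npat, the activator of histone gene transcription, differed by 1.55 with an Msi1 value of 5.06, under the IgG floor. Upf1, a helicase of mRNA decay, and Cstf2, a cleavage factor subunit, were at the low end (−0.94 and −0.84). Slbp, which binds the histone stem-loop, read 6.52 in Msi1, 5.87 in hnRNP, 6.23 in IgG and 6.58 in input and so differed little between arrays.

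Histone chaperones carry histones to and from DNA. Of 22, 4 passed as higher in Msi1 against IgG and 0 as lower, with a median of 0.17, beside 9.67% and 3.59% of all genes. They were Anp32e, a chaperone that removes H2A.Z (at least 2.60-fold, 1.87), Nap1l4 (3.37-fold, 1.75), Asf1a (at least 1.47-fold, 1.33) and Atrx (at least 1.97-fold, 1.18). Rbbp4, a subunit of the CAF-1 complex, differed by −0.75. Of 25 S phase and replication genes, which accompany histone synthesis, 3 were higher and 1 lower, shares near the 9.67% and 3.59% of all genes, with a median of −0.11. Pcna, the replication clamp, read 9.12 in Msi1, 4.46 in hnRNP, 4.63 in IgG and 9.83 in input, a pattern like that of H2bc4, and was at least 14.5-fold higher than in IgG. Top2a (1.69) and Ccna2 (1.68) were the others, and E2f1, a transcription factor of S phase entry, was at least 1.77-fold lower (−1.29). Of 6 histone variant genes with other symbols, 0 were higher or lower. Cenpa, the centromeric H3 variant, read 5.77 in Msi1, 5.45 in hnRNP, 5.72 in IgG and 7.36 in input, and Macroh2a1 differed between Msi1 and IgG by 0.90.

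**Figure D4:**
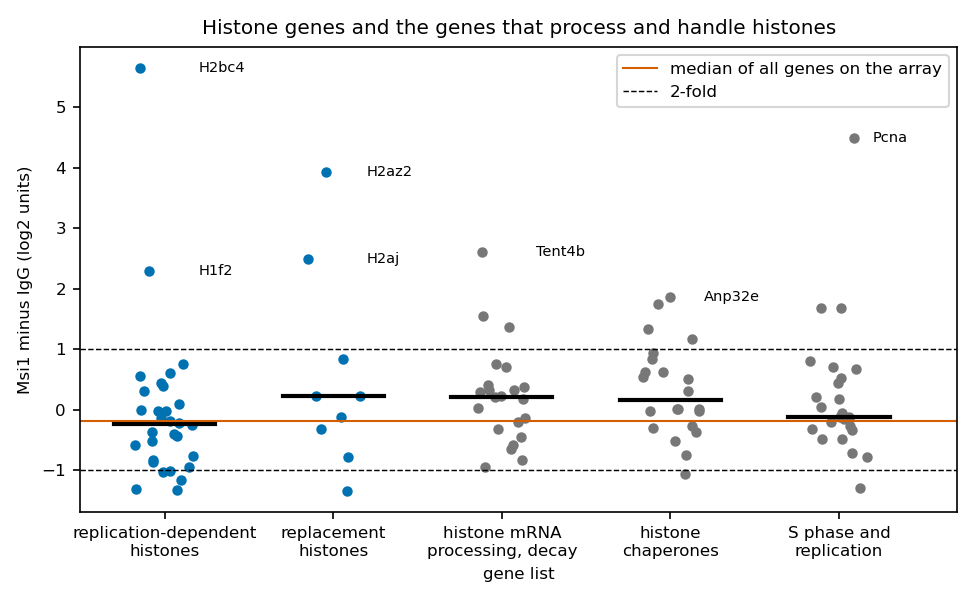
Msi1 minus IgG (log2 units) for each gene of 5 lists (points), with the median of each list (black bars), the median of all genes (orange line, −0.19) and 2-fold (dashed lines). The list medians lie between −0.23 and 0.23, and single genes such as H2bc4 (5.65), Pcna (4.49) and H2az2 (3.92) lie far above them.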

How the data were processed

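RNA from crosslinked, precipitated intestinal epithelium, 100 ng per array, was read on Affymetrix Mouse Gene 1.0 ST arrays (random-primed cDNA). The log2 values are as deposited by the authors, 1 per probe set and array. The tool was affy, per the submitters' processing notes. The normalization was not given in the sources used here, nor was the logarithm's base, which the range of 1.07 to 14.3 puts at 2. GEO's platform annotation named probe sets; 1321 probe sets with several symbols and 11799 with none were left out. Classes follow current symbols and older names in RefSeq (GRCm38.p6). H4f16 was put with the replication-dependent genes after its older name was seen; as a replacement gene it would change no count of genes called. Where a gene had several probe sets, the one with the highest mean was used. Groups came from the antibody labels. No p-values were computed, since each group had 1 array; on arrays, signal over the floor takes the place of depth, and the number of arrays limits precision. Folds whose dimmer value lay below its floor are lower bounds against that floor. The receptor floor, gene lists, naming rule (all 4 values for each replacement gene above a floor, and for replication-dependent genes that passed as higher, the 5 lowest, the 5 brightest on input and those above all floors) and members were chosen with earlier results of these data known. Counting was tested on simulated data. Alternatives were median centring, quantile normalization, loess (span 0.4), other floors, detection on both arrays, 1.5-fold and 3-fold thresholds, and other choices of probe set; a repeat without germ-line genes and the pseudogene was added after seeing the data. Python 3.11.15, pandas 2.3.3, numpy 2.4.6, statsmodels 0.14.6 and matplotlib 3.10.9 were used.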

Additional observations from a re-analysis of the deposited data

Results flagged for a closer look

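Probe sets that GEO's annotation gives to several genes were kept out of the comparisons, and 28 of them carry at least 1 histone symbol. Of these, 4 exceeded IgG by 2-fold or more in the Msi1 precipitation, a signal outside the comparisons above, beside 13.6% of all 1321 probe sets with several symbols, and each was shared between an H3.3 gene and a predicted gene. One shared by H3f3b and Gm6485 read 10.30 in Msi1, 4.06 in hnRNP, 5.05 in IgG and 8.96 in input, so Msi1 exceeded IgG by 5.25 log2 units (at least 32.7-fold). The second of that pair read 8.62 in Msi1, 5.98 in hnRNP, 7.10 in IgG and 10.72 in input, a difference of 1.52 (2.86-fold). For H3f3a and Gm12657, 2 of 4 shared probe sets passed 2-fold, with differences of 1.05 (5.72 in Msi1, 3.07 in hnRNP, 4.66 in IgG and 8.69 in input) and 1.02 (6.58, 6.39, 5.56 and 6.69). The other 2 differed by 0.01 and 0.07. Which gene of each pair gave the signal was not tested.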

How the results depend on the processing

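With genes above the floor on both arrays, 0 replication-dependent genes and 1 replacement gene passed 2-fold as higher in Msi1 against IgG, since the IgG values of H2bc4, H1f2 and H2az2 lay below the floor and such genes were left out by construction. The count of replication-dependent genes lower was 5 without a floor and 0 at a 3-fold threshold, and that of replacement genes lower was 1 with quantile normalization, without a floor and at 1.5-fold. Without germ-line genes and the pseudogene, an alternative chosen after seeing the data, the replacement median in IgG against input was −1.31. The other counts in Msi1 against IgG stayed within 1.5 times the reported count. The other medians stayed within the standard deviation of receptor genes in the same comparison (0.53 to 0.68). Centring on medians moved the median of all genes by 0.13 in Msi1 against IgG, by −0.25 in Msi1 against input and by −0.39 in IgG against input. Differences from input of 2-fold or more turned sign with loess centring for H2ac15 (0.54), H2aj (0.88), H2bc14 (0.51), H2bc3 (1.13), H2bc9 (1.59), H4c14 (1.24) and H4c6 (0.64) in IgG and for H4c14 (0.13) in Msi1. With quantile normalization H2aj (0.12) and H2bc9 (0.56) did so in IgG. Other differences of IgG from input kept their sign but fell under 2-fold with loess centring, among them H2az1 (−0.01), H1f5 (−0.15) and H1f1 (−0.10). Smaller differences of Msi1 from input turned positive for H2bc4, H1f2 and H2az2, past 2-fold with loess (1.23 for H2bc4 and 1.26 for H1f2) and to 0.88, 0.88 and 1.15 with quantile normalization. The cause was not tested. Over the single genes and 3 scalings, 432 values kept their side of 2-fold (35 of them with the sign turned), 30 no longer passed it, 16 newly did and 7 newly did with the opposite sign. H2bc4, H1f2, H2az2 and H2aj kept 2-fold or more over IgG in Msi1 under all 3 scalings. No paired analysis was possible because each group had 1 array, and none could be left out.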

Other observations

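The shared histone probe sets gave values for families that few single-symbol probe sets cover. Of all 1321 probe sets with several symbols, 13.6% passed 2-fold as higher and 6.06% as lower in Msi1 against IgG, and 29.9% as lower in Msi1 against input. The 9 probe sets shared by H3 cluster genes ranged between 2.97 and 8.52 in Msi1, 2.72 and 8.50 in hnRNP, 3.43 and 8.38 in IgG, and 2.37 and 12.16 in input. Of the 9, 0 differed 2-fold between Msi1 and IgG, with a median difference of −0.09, and 8 were at least 2-fold lower in Msi1 than in input. Of 6 shared by H2B genes, 0 passed 2-fold as higher over IgG and 2 as lower (median −0.81), the lower ones by 5.50-fold (6.27 in Msi1 and 8.73 in IgG) and 2.09-fold (6.34 in Msi1 and 7.40 in IgG). Of 5 shared by H4 genes, 0 were higher or lower than in IgG (median 0.38). The 6 shared by H3.3 genes had a median of 1.04.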
